A study of Mus musculus with 8 samples.

Results

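Immediate early genes were followed in the livers of wild-type (WT) mice and of mice that lack the microRNA miR-223 (miR-223KO), all labelled male, of C57BL/6J background and fed a high-fat diet for 3 months. The set was given as 10 genes (Fos, Fosb, Jun, Junb, Jund, Egr1, Ier2, Dusp1, Myc and Klf6), and its members were the probes carrying one of these symbols in the authors' deposited table. Of 40646 probes in that table, 14 did, and they stood for 9 of the 10 genes, since none carried the symbol Jund. The 4 WT and 4 miR-223KO samples had 1 Agilent array each, on which Cy5 marked the liver RNA and Cy3 a commercial reference of assorted mouse RNA. The labels give neither the ages nor the way the miR-223 allele was made, and do not tie samples to single mice, so the spread behind the p-values may be technical.

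Immediate early genes are transcribed within minutes of a growth factor, cytokine or stress signal, without new protein having to be made first. MAP kinases and the transcription factors they act on switch them on, and unstable transcripts and feedback phosphatases switch them off again. Their products are largely transcription factors: FOS and JUN family proteins pair to form AP-1, while EGR1, KLF6 and MYC bind DNA through other domains, and DUSP1 removes phosphate from MAP kinases. In liver these genes are known for their response to partial hepatectomy, injury and the handling of tissue.

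The microRNA that the knockout lacks is shown here with its seed, bases 2 to 8, in capitals, because the seed is the part that pairs with target transcripts. Both mature arms come from RefSeq (build GRCm38.p6) and their seeds differ.
mmu-miR-223-3p (chrX:96242884-96242905, plus strand): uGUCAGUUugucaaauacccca
mmu-miR-223-5p (chrX:96242842-96242864, plus strand): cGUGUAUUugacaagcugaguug
No array value could be given for the microRNA, since no probe was named for it.

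By the brightest probe of each gene, Dusp1, Jun and Klf6 had the largest differences between the groups, none at an adjusted p under 0.05. Dusp1 stood lower in miR-223KO, and Jun and Klf6 stood higher. The dimmer Junb probe, at -0.48, differed by more than Jun or Klf6 did. The promoters of Dusp1, Jun and Klf6 are shown next, because each holds the same short response element. They are the 250 bases before the gene start, read 5′ to 3′ on the gene's strand from the RefSeq promoter table (build GRCm38.p6), with matches to TGACNTCA in capitals.
Jun (chr4:95052223-95052472, minus strand): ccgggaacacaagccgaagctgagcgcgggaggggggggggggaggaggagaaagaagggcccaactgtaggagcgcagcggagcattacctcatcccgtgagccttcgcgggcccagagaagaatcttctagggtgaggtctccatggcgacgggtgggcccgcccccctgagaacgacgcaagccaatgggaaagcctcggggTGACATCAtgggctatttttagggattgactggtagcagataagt
Dusp1 (chr17:26508473-26508722, minus strand): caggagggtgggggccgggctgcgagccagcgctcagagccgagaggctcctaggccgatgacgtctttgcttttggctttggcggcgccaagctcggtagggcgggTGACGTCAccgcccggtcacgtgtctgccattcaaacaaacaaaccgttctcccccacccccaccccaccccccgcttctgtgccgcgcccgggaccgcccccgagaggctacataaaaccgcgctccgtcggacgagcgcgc
Klf6 (chr13:5861239-5861488, plus strand): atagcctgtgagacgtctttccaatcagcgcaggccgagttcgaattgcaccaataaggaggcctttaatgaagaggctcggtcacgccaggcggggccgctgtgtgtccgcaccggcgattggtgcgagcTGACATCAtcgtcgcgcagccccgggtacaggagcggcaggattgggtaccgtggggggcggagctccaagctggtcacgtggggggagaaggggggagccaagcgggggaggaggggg
TGACNTCA takes in the cyclic AMP response element and the AP-1 variant of the Jun promoter, where N is any base, and it was searched on both strands. The first letter of the match lay 45 bases before the start in Jun, 143 in Dusp1 and 119 in Klf6. Promoters of 7 of the 10 genes were searched, and these 3 were the ones with the motif. Of the tested members Fosb and Junb were searched without a match, and Egr1, Ier2 and Myc were not searched. Of all 32851 promoters of that length, 7.49% held TGACNTCA. The pattern was written to take in the Jun site, so the match in Jun was fixed beforehand. Neither enrichment among the members nor a link to the group differences was tested. The AP-1 motif TGANTCA (6.75% of all promoters) and the CArG box bound by serum response factor (1.47%) were in 0 of the 7. Sites outside the 250 bases, or in Egr1, Ier2 or Myc, would be missed, so a lack of such sites cannot be read from this. TGANTCA and TGACNTCA have different lengths and were counted separately. These matches are descriptions of letters and say nothing of binding in these livers.

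The files of the 8 arrays held between 49.5% (WT replicate 4) and 69.8% (WT replicate 2) of spots well above background in Cy5. Those of WT replicate 3, WT replicate 4 and miR-223KO replicate 2 were the lowest, at 49.5% to 53.2%. Replicates 1 and 2 of both groups shared slide 1, and replicates 3 and 4 shared slide 2. All 5 hepatocyte markers on the array (Alb, Apoa1, Ttr, Cyp3a11 and Hnf4a) were well above background in liver on all 8 arrays. Values below are log2 ratios of liver over reference RNA, differences are miR-223KO minus WT on that log2 scale, and ± gives the SD. A gene was tested when its liver signal was well above background on at least 4 arrays with at least 3 values per group that carried no outlier flag, and it stands by its brightest probe. That left 8 of the 10 genes among 16755 genes and unnamed probes, without Fos and Jund. Precision was set by the 8 arrays: the standard error (SE) of a difference had a median of 0.19 over the 8 members.

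No immediate early gene differed between miR-223KO and WT liver at an adjusted p under 0.05 (limma, Benjamini-Hochberg over all 16755), and the adjusted p ran from 0.98 to 0.998. With limma 1 of the 8 members, Dusp1, had an unadjusted p under 0.05, where 783 of all tested (4.67%) did, 2.31% higher and 2.36% lower in miR-223KO. Over all genes 2 passed the adjusted threshold (0.0119%), Ctse (2.63) and Slco1a1 (-1.88), neither of them an immediate early gene. The members split evenly, 4 higher and 4 lower in miR-223KO. Over all tested 48.2% stood higher, and 63.8% did when ratios were centred on each array's median in place of loess, where Myc moved to the higher side (0.20). Their median difference was -0.01, as it was over all tested, and their median absolute difference was 0.15 against 0.15. For 2 of the 8 members, Jun and Dusp1, the groups did not overlap, where 3.09% of all tested did not (1.64% with miR-223KO higher, as in Jun, and 1.44% with it lower, as in Dusp1).

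**Figure D1:**
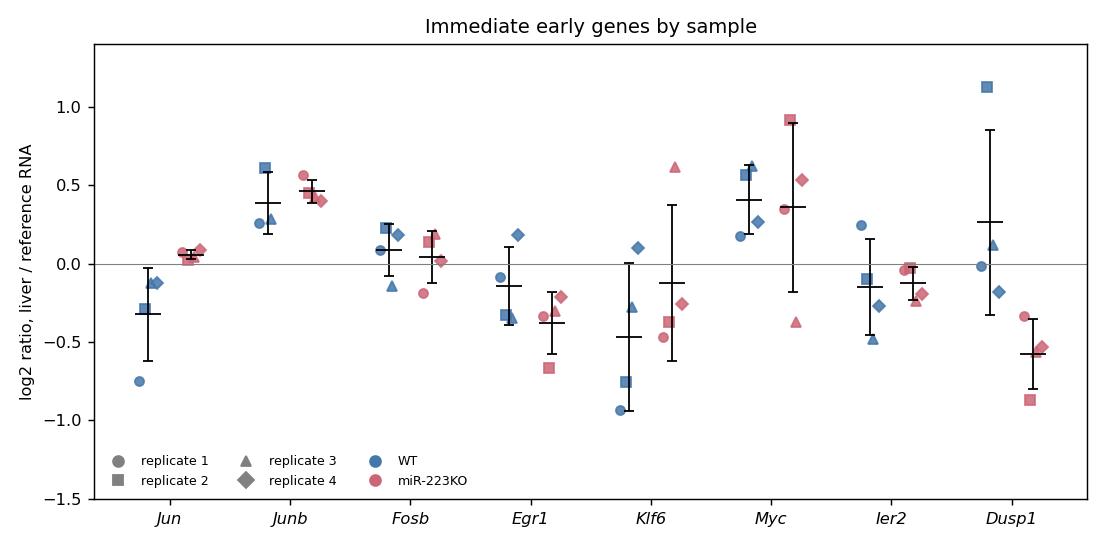
Log2 ratio of liver over reference RNA (vertical axis) for the 8 immediate early genes tested, by their brightest probe, with 1 point per sample, the marker shape giving the replicate number, and bars for the group mean and SD. Jun stands apart with all 4 miR-223KO samples between 0.02 and 0.09 and all WT samples below 0, and Dusp1 with all miR-223KO samples at or below -0.33, while the other groups overlap.

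Dusp1 showed the largest difference of the set. It encodes the phosphatase MKP-1, which inactivates JNK, p38 and ERK. In WT liver its log2 ratio was -0.02, 1.13, 0.12 and -0.18 in replicates 1 to 4, and in miR-223KO liver it was -0.33, -0.87, -0.56 and -0.53. All miR-223KO samples lay below all WT samples, and WT replicate 2 lay well above the other WT samples. The means were 0.26 ± 0.59 (SD, n = 4) and -0.57 ± 0.22 (SD, n = 4), a difference of -0.84 (SE 0.25, 95% interval -1.37 to -0.30), or 1.79-fold lower. In limma the unadjusted p was 0.00442, rank 68 of 16755, and the adjusted p was 0.98, so the difference did not pass. Without WT replicate 2 it was -0.55 (adjusted p = 0.995 in limma). It was -1.16 within slide 1 and -0.52 within slide 2. After normalisation between arrays the liver channel differed by -0.67 and the reference channel by 0.16, and both of these lower the ratio of liver over reference in miR-223KO. The liver signal was well above background on all 8 arrays with no outlier flag, and the authors' deposited table gave -1.01 for the same probe.

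Of the hepatocyte markers all 4 that were tested stood lower, as Dusp1 did, where 48.2% of all tested stood higher. Their median was -0.38, and none passed. Alb, the main plasma protein, stood at -0.66 (limma adjusted p = 0.98), Apoa1 at -0.55, Ttr at -0.22 and Hnf4a at -0.09. Alb and Apoa1 were the 2 measured on every array. Their mean log2 ratio was 1.49 to 2.73 in WT and 1.13 to 1.39 in miR-223KO samples. The part of the hepatocyte markers in the Dusp1 difference was not tested. Of 6 macrophage markers 5 stood higher (48.2% over all tested), with a median of 0.35, and none passed. Their mean log2 ratio overlapped between the groups, at -0.43 to 0.62 in WT and -0.22 to 0.62 in miR-223KO samples. The other medians were -0.04 for neutrophil, 0.06 for endothelium, 0.03 for stellate, -0.20 for bile duct, -0.06 for T cell and 0.14 for B cell markers, and the mean of each of these lists overlapped between the groups too. Csf1r, the macrophage growth factor receptor, at 0.54 (SE 0.20), and S100a9, a calcium-binding protein of neutrophils, at 0.61 (SE 0.21), were the 2 cell type markers whose groups did not overlap (3.09% of all tested). Both were chosen after their values were seen, and each had an adjusted p of 0.98 in limma. S100a9 signal cleared background on 6 of 8 arrays. The other 2 neutrophil markers tested, Mpo (-0.04) and Cxcr2 (-0.21), stood lower. In a whole-liver sample fewer cells of a type and less RNA per cell cannot be told apart.

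Jun, the central JUN subunit of AP-1, was the other member whose groups did not overlap. Its log2 ratio was -0.75, -0.29, -0.13 and -0.12 in WT replicates 1 to 4. In miR-223KO replicates 1 to 4 it was 0.07, 0.02, 0.04 and 0.09. The miR-223KO samples lay within a range of less than 0.1, and WT replicate 1 lay well below the other WT samples. The means were -0.32 ± 0.30 (SD, n = 4) and 0.06 ± 0.03 (SD, n = 4), a difference of 0.38 (SE 0.19, 95% interval -0.02 to 0.77), or 1.30-fold higher, with an unadjusted p of 0.0608 and an adjusted p of 0.98 in limma. The Jun probe was printed on 10 spots per array, and the SD between the unflagged spots of an array was 0.09 to 0.27. Each array's value is the mean of 5 to 10 such spots. The nearest samples of the groups were WT replicate 4 at -0.12 and miR-223KO replicate 2 at 0.02. Liver Jun signal cleared background on 4 of 4 miR-223KO arrays and on 2 of 4 WT arrays, which leaves the size of the difference uncertain. The difference was 0.57 within slide 1 and 0.19 within slide 2, it was 0.23 without WT replicate 1 and 0.25 with ratios centred on the array median, and the authors' deposited table gave 0.69.

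Junb encodes a JUN relative that often opposes JUN, and its 2 probes differed. The brighter probe (A_51_P159194) read 0.26, 0.61 and 0.29 in WT replicates 1 to 3, the spot of WT replicate 4 having an outlier flag. In miR-223KO replicates 1 to 4 it read 0.56, 0.45, 0.42 and 0.40, inside the WT range, with a difference of 0.07 (SE 0.19, limma adjusted p = 0.993). The dimmer probe (A_51_P159201) read 0.26, 0.45, 0.12 and 0.58 in WT and 0.19, -0.44, -0.21 and -0.06 in miR-223KO replicates 1 to 4. There 3 of 4 miR-223KO samples lay below every WT sample, and the difference was -0.48 (SE 0.19), also -0.48 within each slide, with an unadjusted p of 0.0217 and an adjusted p of 0.985 in limma over 23930 probes. The 2 probes did not follow each other over the 7 arrays that had both values (Pearson r = 0.17, exact permutation p = 0.716; Spearman rho = 0.11, exact permutation p = 0.84). No direction can be given for Junb from these probes.

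The FOS side of AP-1 was measured less well. Fos, the classic immediate early gene whose protein needs a JUN partner to bind DNA, had 10 spots per array, and on 0 of 8 arrays did most of them clear background, in liver or in the reference. No level or difference is given for it. The authors' deposited table held a Fos value for every sample and a difference of -0.21, which thus rests on signal not well above background. Fosb, a FOS relative, read 0.09, 0.22, -0.14 and 0.18 in WT and -0.18, 0.14, 0.19 and 0.02 in miR-223KO replicates 1 to 4. The groups overlapped almost fully, and the difference was -0.05 (SE 0.18, 95% interval -0.42 to 0.33, limma adjusted p = 0.996). Fosb signal cleared background on 4 of 4 miR-223KO arrays and on 2 of 4 WT arrays.

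Egr1, a zinc finger factor induced through serum response factor, read -0.08, -0.33, -0.35 and 0.18 in WT replicates 1 to 4. In miR-223KO replicates 1 to 4 it read -0.33, -0.66, -0.30 and -0.21. The groups overlapped, with WT replicate 4 the highest and miR-223KO replicate 2 the lowest. The difference was -0.24 (SE 0.19, 95% interval -0.64 to 0.17, limma adjusted p = 0.98), and it was -0.30 and -0.18 within the slides. It was -0.13 without WT replicate 4 and -0.14 without miR-223KO replicate 2. The probe was well above background on all 8 arrays, and the authors' deposited table gave -0.50.

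Klf6, a Krüppel-like zinc finger factor, stood higher in miR-223KO by both of its probes, and neither passed. The brighter probe (A_51_P451346) read -0.94, -0.76, -0.28 and 0.10 in WT and -0.47, -0.37, 0.61 and -0.26 in miR-223KO replicates 1 to 4, a difference of 0.35 (SE 0.27, limma adjusted p = 0.98). It was 0.10 without miR-223KO replicate 3, 0.19 without WT replicate 1 and 0.53 without WT replicate 4. The other (A_51_P503162) read -1.24, -1.02, -0.81 and -0.44 in WT and 0.36, -0.84, -0.73 and 0.60 in miR-223KO. Its difference was 0.73 (SE 0.30), with an unadjusted p of 0.026 and an adjusted p of 0.985 in limma over all probes. The probes put different samples on top: miR-223KO replicate 3 was highest on the first and lay within the WT range on the second, where replicates 1 and 4 were highest. Over the 8 arrays their Pearson r was 0.20 (exact permutation p = 0.64) and their Spearman rho 0.62 (exact permutation p = 0.115). Within the slides the differences were 0.42 and 0.27 for the first probe and 0.89 and 0.56 for the second.

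Ier2, which encodes a short nuclear protein, showed no clear difference. Its brighter probe read 0.25, -0.10, -0.48 and -0.27 in WT and -0.04, -0.03, -0.24 and -0.19 in miR-223KO replicates 1 to 4. All miR-223KO samples lay inside the WT range, with a difference of 0.02 (SE 0.19, 95% interval -0.38 to 0.43, limma adjusted p = 0.998). The other Ier2 probe cleared background on 1 of 8 arrays and was not tested. The authors' deposited table gave 0.31 and 0.74 for the 2 probes.

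**Figure D2:**
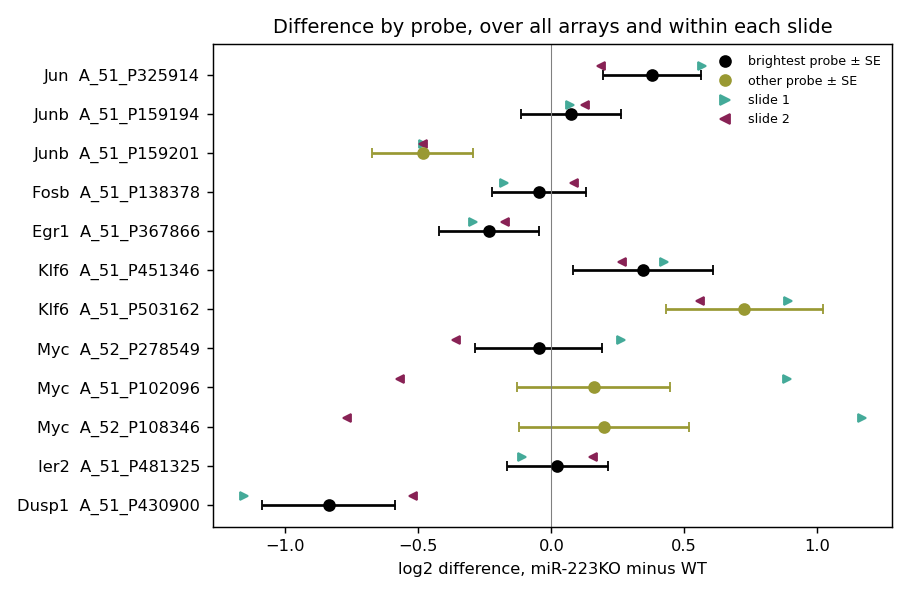
Log2 difference of miR-223KO minus WT (horizontal axis) for the 12 member probes tested, with circles for the value over all 8 arrays, bars for its SE, and triangles for the values within slide 1 and slide 2. Dusp1, Egr1, Jun, both Klf6 probes and both Junb probes keep their direction on both slides, the Junb probes on opposite sides of 0. Of the WT samples on slide 2 the brighter Junb probe has only replicate 3, since the spot of replicate 4 was flagged. All 3 Myc probes stand above 0 on slide 1 and below 0 on slide 2.

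Myc is a growth-promoting factor that pairs with MAX, and the difference between its groups was of opposite sign on the 2 slides. Its brightest probe (A_52_P278549) read 0.18, 0.56, 0.62 and 0.26 in WT and 0.35, 0.92, -0.37 and 0.54 in miR-223KO replicates 1 to 4, a difference of -0.05 (SE 0.24, limma adjusted p = 0.996). The probe printed on 10 spots (A_51_P102096) read -0.74, -0.46, -0.48 and 0.70 in WT and 0.14, 0.43, -0.49 and -0.43 in miR-223KO. The third (A_52_P108346) read -1.19, -0.71, -0.45 and 0.30 in WT and -0.06, 0.49, -0.70 and -0.98 in miR-223KO. On these last probes WT replicate 4 and miR-223KO replicates 1 and 2 were the high samples, and on slide 1 both miR-223KO samples lay above both WT samples.

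The last 2 Myc probes followed each other over the 8 arrays, with Pearson r = 0.94 (exact permutation p = 0.00154, adjusted p = 0.00769 over the 5 probe pairs of Junb, Klf6 and Myc) and Spearman rho = 0.76 (exact permutation p = 0.0368, adjusted p = 0.184). Without the 2 arrays farthest from the median of A_51_P102096 r was 0.87, and it was 0.99 and 0.90 within the slides. With the brightest probe their r was 0.29 and 0.38 (exact permutation p = 0.49 and 0.364). The difference within slide 1 and slide 2 was 0.88 and -0.57 for A_51_P102096, 1.17 and -0.77 for A_52_P108346, and 0.26 and -0.36 for A_52_P278549. A test of that change of the genotype difference between slides, chosen after seeing the data, gave -1.94 (SE 0.43) for A_52_P108346, with an unadjusted p of 0.000577 and an adjusted p of 0.488 in limma over 23930 probes. For A_51_P102096 it gave -1.45 (SE 0.46, unadjusted p = 0.00769 in limma). In that test 9.38% of all probes had an unadjusted p under 0.05 and 0% passed. With 2 samples of each group on a slide, a slide effect and a difference between single samples cannot be told apart. The 10-spot Myc probe cleared background on 2 of 4 WT and 3 of 4 miR-223KO arrays. A_52_P108346 did so on 2 of 4 WT and 4 of 4 miR-223KO arrays.

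**Figure D3:**
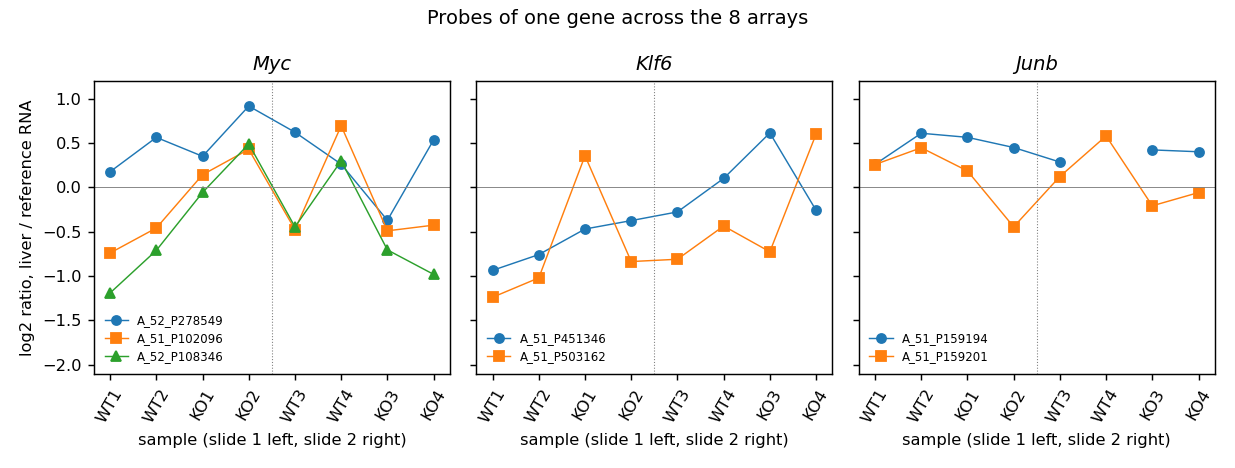
Log2 ratio of liver over reference RNA (vertical axis) for each tested probe of Myc, Klf6 and Junb across the 8 samples, KO standing for miR-223KO, with slide 1 left and slide 2 right of the dotted line and lines that only join the values of a probe. A_51_P102096 and A_52_P108346 of Myc run together (r = 0.94), while the probes of Klf6 (r = 0.20) and Junb (r = 0.17) do not.

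Immediate early genes are often induced together, so their values were compared between samples after removing the group means. Among the 7 members measured on all 8 arrays there were 21 pairs, of which 11 had a Pearson r above 0, with a median r of 0.02. The comparison was planned against Fos and was made over all pairs instead, since Fos was not measured. None of the 21 passed after adjustment (lowest adjusted p 0.122), and 1 had an exact permutation p under 0.05. That pair was Ier2 and Jun, which ran in opposite directions (Pearson r = -0.89, exact permutation p = 0.00583; Spearman rho = -0.81, exact permutation p = 0.0218, adjusted p = 0.229). Without the 2 arrays farthest from the median of Ier2 the r of this pair was -0.50, and it was -0.997 within slide 1 and -0.61 within slide 2. Jun varied little in miR-223KO (SD 0.03 against 0.30 in WT), so the r of Ier2 and Jun rests mostly on the 4 WT arrays. By rank 2 pairs had an exact permutation p under 0.05, the other being Ier2 and Klf6 (Spearman rho = -0.83, exact permutation p = 0.0154, adjusted p = 0.229; Pearson r = -0.69, exact permutation p = 0.055), whose r was -0.90 within slide 1 and 0.07 within slide 2. All members share the array and its reference channel. The permutations mixed deviations from 2 group means across the groups, so the p-values of these 21 pairs are approximate although every order was counted.

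Genes of the same response and of the pathway around it were counted from lists, and none of these genes passed in limma. Of 40 other immediate early genes 31 were tested, and 16 stood higher and 15 lower (48.2% higher over all tested). Their median was 0.04 against -0.01 over all tested. In limma 2 had an unadjusted p under 0.05 (4.67% of all tested). These were Klf10, a TGF-beta induced zinc finger factor, at -0.57 (SE 0.23, limma adjusted p = 0.98), and Ccn2, the matricellular protein CTGF, at 0.56 (SE 0.26, limma adjusted p = 0.98). Klf10 did not keep its size on both slides, at -1.10 and -0.05, and Ccn2 changed sign between them, at 1.27 and -0.15. Btg1 (-0.32) and Gadd45b (0.36), chosen after their values were seen, were the 2 of these 31 genes whose groups did not overlap (3.09% of all tested). In the other pathway lists the groups of 2 genes did not overlap, Elk3 (0.26), also chosen after its values were seen, and Nop56 (0.34).

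Among the kinases that signal to these genes and the factors of the serum response element, 13 of 19 tested stood higher (48.2% over all tested). Their median was 0.11, and 2 had an unadjusted p under 0.05 in limma (4.67% of all tested). They were Mrtfa, a coactivator of serum response factor, at 0.57 (SE 0.23), and Map2k1, the ERK kinase MEK1, at 0.43 (SE 0.19). Within the slides Mrtfa stood at 0.15 and 1.00 and Map2k1 at 0.24 and 0.63. Of 16 partners and antagonists 8 stood higher and 8 lower (median -0.03), led by Atf2, a partner of JUN, at 0.44 (SE 0.19) and Mafg, a small MAF protein, at -0.35 (SE 0.18). Atf2 alone of these 16 had an unadjusted p under 0.05 in limma. Of 7 other DUSP phosphatases 5 stood higher (48.2% over all tested), with a median of 0.16. Dusp3 led them at 0.44 (SE 0.20) and alone of these 7 had an unadjusted p under 0.05 in limma. Dusp16, which acts on JNK, stood at -0.26 (SE 0.19). Dusp1 thus stood on the other side of 0 from most of this list, a contrast that was not tested. The list leaves out Dusp2, Dusp5 and Dusp6, which were counted with the other immediate early genes. Of these only Dusp2 was tested, and at -0.05 (SE 0.25) it stood on the side of Dusp1.

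Known MYC target genes stood higher in 10 of 14 tested (48.2% over all tested), with a median of 0.14 and 0 at an unadjusted p under 0.05 in limma. Nop56, of ribosome assembly, at 0.34 (SE 0.18) and the transferrin receptor gene Tfrc at 0.32 (SE 0.18) led them, and Myc itself stood at -0.05. Heat shock genes, which respond to stress and to handling, stood higher in 3 of 4 tested (48.2% over all tested). Among them were Hspb1 at 0.39 (SE 0.32) and Hsph1 at 0.29 (SE 0.27). The slides differed for these, with 0.96 and -0.35 for Hspb1 and 0.63 and -0.04 for Hsph1.

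**Figure D4:**
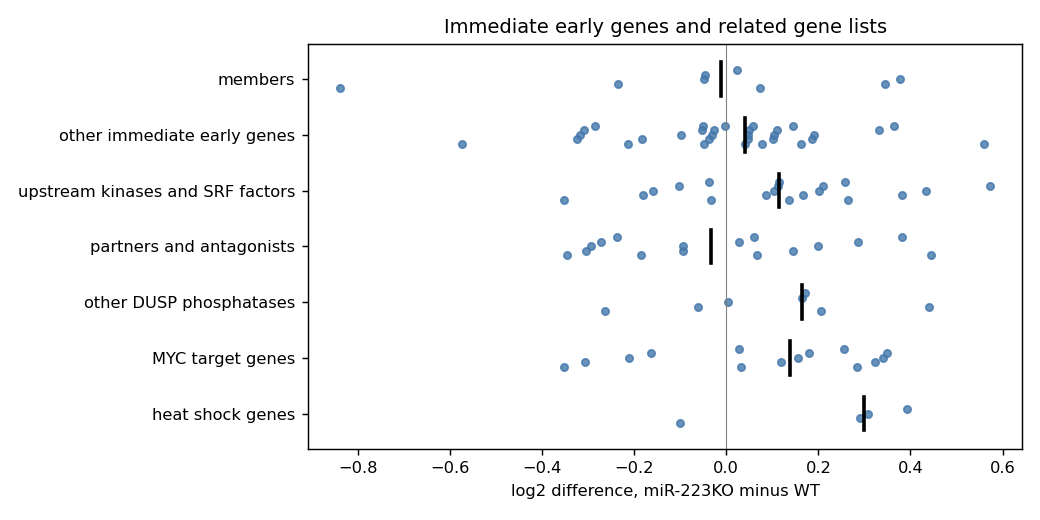
Log2 difference of miR-223KO minus WT (horizontal axis) for each tested gene of the immediate early set and of 6 related lists, with 1 point per gene and a black bar at the list median. The points of every list lie on both sides of 0, and Dusp1, at -0.84, lies farthest from it.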

How the data were processed

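Liver RNA of 4 WT and 4 miR-223KO samples was set against 1 reference RNA on 8 Agilent 2-colour arrays, all of 1 dye orientation. The scans went through Feature Extraction 12.0.3.1, per the file headers. In the deposited scanner files each spot has signal and background as intensity, and a LogRatio that is the log10 of processed Cy5 over Cy3, per the file headers. The authors' deposited table holds log2 ratios per sample, and how it was made is not given in the sources used here. Its difference column matched miR-223KO minus WT means of those values (largest deviation 5.2e-07). The same rounded differences came from the scanner software's processed signals for Dusp1 (-1.01), Egr1 (-0.50), Jun (0.69) and Klf6 (0.43). The authors' values for these genes are thus no separate check on the processed signals. For Junb, which had a flagged spot, the table gave 0.06 and the processed signals 0.17. Here background was corrected by normexp (offset 50, flagged local backgrounds replaced by the array's median), ratios were normalised by loess within arrays, flagged spots were left out and spots of a probe averaged (limma 3.58.1, R 4.3.3), after a test on simulated data. Groups were compared with lmFit and eBayes, two-sided, and intervals are not adjusted. Liver and reference channels were separated after Aquantile normalisation. Probes were named by RefSeq accession (28462) or the table's symbol (6902), and 5810 stayed unnamed. Named are all members, per pathway list the 2 genes with the smallest p, the genes that passed and the 5 genes most like the members. Also named are Dusp2, some cell type markers and a few genes said to be chosen after their values were seen. Members and lists were chosen with earlier results of these data known. Same-numbered samples did not deviate together (r of -0.03 to 0.06), so numbers were not taken as pairs. Alternatives covered background, normalisation, filters, flags, probe choice, slide, replicate block and leaving out each sample.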

Additional observations from a re-analysis of the deposited data

How the results depend on the processing

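No member passed the adjusted threshold under any of the 24 alternatives. The median member difference ran from -0.05 to 0.09 over them and lay on both sides of 0. Each shift was smaller than the median within-group SD of a member (0.23), a wide yardstick for a median over genes. Dusp1 (-1.16 to -0.52), Egr1 (-0.50 to -0.13) and Klf6 (0.10 to 0.54) kept their direction in 24 of 24, and Jun (0.19 to 0.69) in the 23 that could be fitted. Their lowest adjusted p in limma was 0.507 (Dusp1, slide 1 alone). Several alternatives could not move the values of Dusp1 and Egr1, so the 24 are not 24 separate checks. Dusp1 stayed at -0.84 and Egr1 at -0.24 with Aquantile normalisation, either filter, flagged spots kept or either other probe rule. The same held for eBayes with trend and robust and for either block. The small differences of Fosb, Ier2, Junb and Myc changed sign. Fosb was 0.0050 with the scanner software's processed signals and with the authors' log2 ratios, 0.085 on slide 2 and -0.12 to 0.029 without 1 sample each, the latter without miR-223KO replicate 1. Ier2 was -0.11 on slide 1, 0.31 with processed signals and with the authors' log2 ratios, and -0.086 to 0.15 without 1 sample each, below 0 without WT replicate 3 or 4 or miR-223KO replicate 1 or 2. Junb was -0.084 with flagged spots kept, -0.23 as the mean of its probes, and -0.48 on slide 2, where only its dimmer probe could be fitted. Myc was 0.0088 with processed signals and with the authors' log2 ratios, 0.20 with median centring, 0.10 as the mean of its probes, 0.26 on slide 1, and -0.23 to 0.19 without 1 sample each, above 0 without WT replicate 2 or 3 or miR-223KO replicate 3. Fosb, Ier2 and Jun had no value where background had to be cleared on all 8 arrays. The 2 genes called in all became 4 with a normexp offset of 16, 1 with processed signals, median centring, the authors' log2 ratios, flagged spots kept or the mean of probes, and 0 on either slide alone. Leaving out 1 sample gave 2 to 3, and 0 members called each time. With the replicate block 2 genes and 0 members were called, and Dusp1 stayed at -0.84 (limma adjusted p = 0.97). The median correlation of member pairs, 0.02, was -0.055 and -0.11 within the slides. It was -0.036 without the 2 arrays whose mean over the members lay farthest from the median of those means. Without 1 sample each, an alternative chosen after seeing the data, it was -0.069 to 0.072. The cause of these changes was not tested.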

Other observations

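Jund, the JUN family member without a symbol in the authors' table, has 1 probe by RefSeq accession in the scanner files. Its liver signal was well above background on all 8 arrays, and its spot carried an outlier flag on 6 of them. The 2 values without a flag were -1.10 in WT replicate 3 and -0.83 in WT replicate 4. With flagged spots kept its difference was 0.24 (SE 0.22, limma adjusted p = 0.977).

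Of 12865 named genes measured on all 8 arrays, Rhoc (r = 0.98), 2810459M11Rik (0.97), 2610008E11Rik (0.97), Gpr158 (0.96) and Cmpk1 (0.96) ran closest to the mean of 7 immediate early genes after the group means were removed. These are the highest of a large number of correlations over 8 arrays, and they are given as a description.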
